A study of Mus musculus with 4 samples.

Results

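Srebf1 and 9 genes of de novo lipogenesis, the pathway by which liver makes fatty acids from carbohydrate carbon, were followed across 4 mouse liver arrays. The genes were Srebf1, Acaca, Acacb, Acly, Fasn, Scd1, Me1, Thrsp, Pnpla3 and Mlxipl. They were taken as all probe sets whose single gene symbol in the platform annotation is on that list, which gave 21 of 45037 probe sets. Of these, 18 reached the median signal of an array on at least 1 array, and all 10 genes kept at least 1 probe set. The whole table held 18193 named genes, of which 12493 were kept in the same way.

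Each array held liver RNA of male mice of 1 group, and the groups were LASS2-/- on high-fat diet (LASS2-/- HFD), wild type on high-fat diet (WT HFD), LASS2-/- on chow (LASS2-/- chow) and wild type on chow (WT chow). The high-fat diet supplied 60% and the chow 10% of calories from fat, and both were fed from 3 weeks of age. The labels do not give the age at sampling, the strain or how the LASS2 allele was made, nor whether single or pooled mice were used. Lass2 is the former name of Cers2, which encodes ceramide synthase 2, an enzyme of very-long-chain ceramide synthesis. The only Cers2 probe set, 1423955_a_at, had 12.32 log2 on the array labelled LASS2-/- HFD against 12.25 log2 on the WT HFD array, and 12.32 log2 on the array labelled LASS2-/- chow against 12.46 log2 on the WT chow array. The targeted gene was therefore not lower by more than 0.15 log2 on the arrays labelled LASS2-/-, and which exons this probe set reads was not determined. Every genotype direction given here rests on the labels, and the arrays are called "labelled LASS2-/-" for that reason.

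Srebf1 encodes SREBP-1, a transcription factor made as a precursor in the membrane of the endoplasmic reticulum. Its partner Scap carries it to the Golgi unless Insig proteins hold it back, and proteases there release the active part. In liver its SREBP-1c form is induced by insulin and by the oxysterol receptor LXR, and it activates lipogenic enzyme genes. Mlxipl encodes ChREBP, which responds to glucose metabolites and acts on many of the same enzyme genes. ATP citrate lyase (Acly) makes cytosolic acetyl-CoA, the acetyl-CoA carboxylases (Acaca and Acacb) turn it into malonyl-CoA, fatty acid synthase (Fasn) builds palmitate from it with NADPH, part of which malic enzyme (Me1) supplies, and stearoyl-CoA desaturase 1 (Scd1) introduces a double bond.

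RefSeq promoter windows on mouse build GRCm38.p6 were matched to 9 of the 10 genes, 13 windows in all. Scd1 had no window in the table. Windows are printed below for Srebf1, which had the largest measured ratio of the 10 genes and 3 annotated starts, for Mlxipl, the other regulator, whose windows hold the only E-box and sterol regulatory element matches among the 9 genes, and for Fasn, the enzyme that builds the fatty acid. They run 5′ to 3′ on the gene's strand up to the base before the annotated start. Printed are the last 120 to 200 bases of the 250 searched. A CCAAT and a GC box of Mlxipl window 1, 173 and 188 bases before the start, lie upstream of its printed 160 bases. Capitals mark matches, on either strand, to CCAAT (the NF-Y box), GGGCGG (the GC box bound by Sp1), CACGTG (an E-box) and TCACNCCAC (a sterol regulatory element).
Srebf1 window 1, chr11:60222582-60222781, - strand: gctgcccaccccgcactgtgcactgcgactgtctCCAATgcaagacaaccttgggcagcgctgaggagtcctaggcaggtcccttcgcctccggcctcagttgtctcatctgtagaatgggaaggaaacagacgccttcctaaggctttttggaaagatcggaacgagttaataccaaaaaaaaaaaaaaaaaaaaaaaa
Srebf1 window 2, chr11:60220628-60220827, - strand: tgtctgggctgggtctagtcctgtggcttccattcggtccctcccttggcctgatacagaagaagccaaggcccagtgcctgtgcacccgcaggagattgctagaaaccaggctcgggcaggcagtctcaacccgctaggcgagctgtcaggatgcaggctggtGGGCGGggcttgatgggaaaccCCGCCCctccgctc
Srebf1 window 3, chr11:60210472-60210671, - strand: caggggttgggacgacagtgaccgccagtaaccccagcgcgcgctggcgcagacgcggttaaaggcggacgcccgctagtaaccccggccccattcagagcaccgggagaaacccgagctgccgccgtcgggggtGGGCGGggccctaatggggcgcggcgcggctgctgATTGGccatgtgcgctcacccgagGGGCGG
Mlxipl window 1, chr5:135089730-135089889, + strand: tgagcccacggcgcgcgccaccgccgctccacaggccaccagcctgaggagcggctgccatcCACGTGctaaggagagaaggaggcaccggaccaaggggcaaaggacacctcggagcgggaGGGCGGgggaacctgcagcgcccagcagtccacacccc
Mlxipl window 2, chr5:135106691-135106890, + strand: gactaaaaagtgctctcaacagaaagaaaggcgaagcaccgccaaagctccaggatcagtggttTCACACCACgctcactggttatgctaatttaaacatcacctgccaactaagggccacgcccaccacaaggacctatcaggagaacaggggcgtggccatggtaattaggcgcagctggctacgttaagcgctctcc
Fasn, chr11:120824548-120824667, - strand: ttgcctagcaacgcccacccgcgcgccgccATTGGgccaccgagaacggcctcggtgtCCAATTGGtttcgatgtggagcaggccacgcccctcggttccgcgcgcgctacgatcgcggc

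In the 250 bases before the start, the sterol regulatory element letters were found in 1 of 13 windows of these genes, window 2 of Mlxipl, 136 bases before the start, against 1.05% of 32851 mouse windows. The E-box was found in window 1 of Mlxipl alone, 98 bases before the start, against 6.02% of all windows. CCAAT was found in 8 of the 13 windows, those of 7 genes, against 33.8% of all windows. The Fasn window held 3 CCAAT matches, of which the pair 62 and 59 bases before the start overlap, since their letters read CCAATTGG. The GC box was found in 6 windows of 5 genes, against 32.7% of all windows. Srebf1 had GC boxes in windows 2 and 3, 36 and 14 bases and 65 and 6 bases before the start, and CCAAT in windows 1 and 3, 166 and 30 bases before it. A match is a run of letters in these windows and nothing was measured at it here. The single Srebf1 probe set did not separate transcripts of the 3 starts.

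Values are log2 of the MAS5 signal, the Affymetrix summary of a probe set, so that 1 unit is a 2-fold difference. Each group has 1 array, so a ratio between 2 arrays has no replicate error and no p-value. The only test was an additive linear model of diet and genotype over the 4 arrays in limma, whose error is the difference between the genotype ratios of the diets, pooled toward genes of like signal. A gene passed at an adjusted p under 0.05 over 12493 genes, and "rose" and "fell" are used of genes that passed. For scale, the SD of the log2 difference over the brighter genes was 0.266 between the HFD arrays and 0.257 between the chow arrays, and 0.433 between the arrays labelled LASS2-/- and 0.407 between the WT arrays. Every ratio and difference is taken within a probe set.

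Srebf1 stood apart on the array labelled LASS2-/- chow. Its probe set 1426690_a_at had 12.66 log2 on the array labelled LASS2-/- HFD against 13.22 log2 on WT HFD, and 11.21 log2 on the array labelled LASS2-/- chow against 12.97 log2 on WT chow. The other 3 arrays lay within 0.56 log2 of each other, and the array labelled LASS2-/- chow lay 1.45 log2 below the nearest of them. On chow Srebf1 was 3.38-fold lower on the array labelled LASS2-/- than on WT (log2 ratio -1.76), rank 3 from the lowest among 10525 genes measured on both arrays. On high-fat diet it was 1.48-fold lower (log2 ratio -0.56), rank 333 from the lowest of 10664. High-fat diet over chow was 2.73-fold under the LASS2-/- label (log2 ratio 1.45), rank 101 from the highest of 10555, and 1.19-fold under the WT label (log2 ratio 0.25), rank 2581 from the highest of 10548. The 2 larger ratios share the array labelled LASS2-/- chow. The genotype ratio on HFD minus that on chow was 1.19 log2, rank 105 from the highest of 10111 genes at or above the median on all arrays, and no test of this difference was possible with 1 array a group.

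Over the 4 arrays Srebf1 fell with the LASS2-/- label by 1.16 ± 0.18 on the log2 scale (moderated SE; limma adjusted p = 0.00743) and rose with high-fat diet by 0.85 ± 0.18 (limma adjusted p = 0.00797). The genotype call held in 5 of 10 alternative settings, with limma adjusted p between 0.000183 and 0.757, and the diet call in 8 of 10, with limma adjusted p between 0.000772 and 0.58. Both highest values came with robust moderation of the error, and neither call held there. The moderated SE of Srebf1 is far smaller than the distance between its own ratios, -0.56 and -1.76 for genotype and 1.45 and 0.25 for diet.

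**Figure D1:**
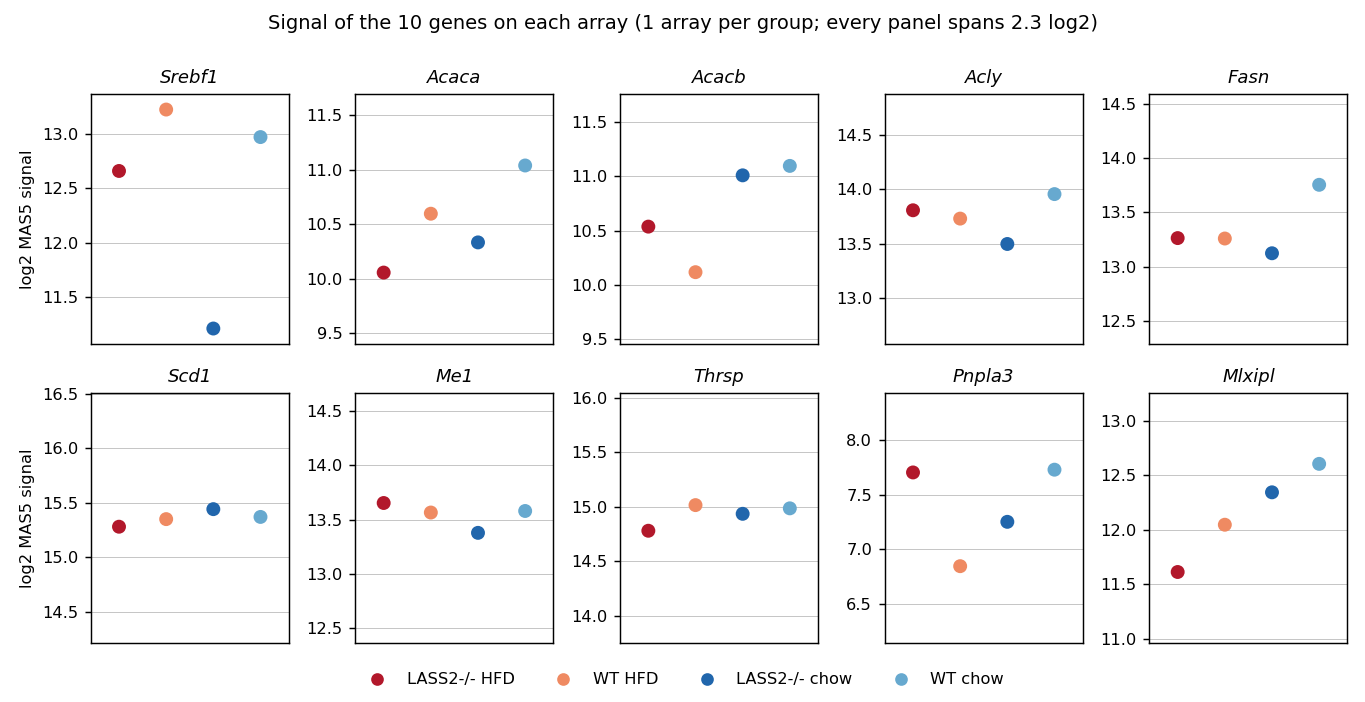
Log2 MAS5 signal (vertical axis) of the 10 genes, each by its brightest kept probe set, with 1 point for each array and panels spanning the same number of log2 units. Srebf1 on the array labelled LASS2-/- chow (11.21) lies below its other 3 points (12.66 to 13.22), while the points of Scd1 (15.28 to 15.44) and Thrsp (14.78 to 15.01) lie close together.

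Of the enzymes that supply and carboxylate acetyl-CoA, Acaca was lower on both arrays labelled LASS2-/-. Acaca, acetyl-CoA carboxylase 1, which makes the malonyl-CoA used for synthesis, had 10.06 log2 on the array labelled LASS2-/- HFD against 10.60 log2 on WT HFD, and 10.33 log2 on the array labelled LASS2-/- chow against 11.04 log2 on WT chow (probe set 1434185_at). Both arrays labelled LASS2-/- lay below both WT arrays. Acaca was 1.45-fold lower on HFD and 1.63-fold lower on chow, and fell over both diets by 0.62 ± 0.12 on the log2 scale (limma adjusted p = 0.0299). The call held in 5 of 10 alternative settings. Its diet difference of -0.36 ± 0.12 log2 did not pass (limma adjusted p = 0.0748). A dimmer Acaca probe set, 1427595_at, lay between 6.56 and 6.74 log2 on all 4 arrays, with genotype ratios of -0.18 on HFD and -0.10 on chow.

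Acacb, acetyl-CoA carboxylase 2, whose malonyl-CoA at the mitochondrion restrains fatty acid import, was lower on high-fat diet under both genotype labels. It had 10.54 log2 on the array labelled LASS2-/- HFD against 10.12 log2 on WT HFD, and 11.01 log2 on the array labelled LASS2-/- chow against 11.09 log2 on WT chow (probe set 1427052_at). Both HFD arrays lay below both chow arrays. High-fat diet over chow was 1.39-fold lower under the LASS2-/- label and 1.97-fold lower under the WT label. Acacb fell with high-fat diet by 0.72 ± 0.13 on the log2 scale (limma adjusted p = 0.00266), in 8 of 10 alternatives as well. Its genotype difference was 0.17 ± 0.13 log2 (limma adjusted p = 0.765), made of ratios of 0.42 on HFD and -0.09 on chow. The other Acacb probe set, 1445754_at, was below the median on all arrays.

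Acly was lowest on the array labelled LASS2-/- chow and passed neither test. Its brightest probe set, 1451666_at, had 13.81 log2 on the array labelled LASS2-/- HFD against 13.73 log2 on WT HFD, and 13.50 log2 on the array labelled LASS2-/- chow against 13.96 log2 on WT chow. The genotype ratio was thus 0.08 on HFD and -0.46 on chow. Other Acly probe sets had ratios of the same signs: 1439459_x_at had 0.14 on HFD and -0.49 on chow. Probe set 1425326_at had 0.24 on HFD and -0.67 on chow. In all 3 bright probe sets the diet ratio was above 0 under the LASS2-/- label, between 0.25 and 0.31, and below 0 under the WT label, between -0.67 and -0.23. The remaining 3 Acly probe sets were dim: 1446315_at and 1439445_x_at reached the median on no array and 1438389_x_at on 1 array.

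Fasn was highest on WT chow and passed neither test. It had 13.26 log2 on the array labelled LASS2-/- HFD against 13.26 log2 on WT HFD, and 13.13 log2 on the array labelled LASS2-/- chow against 13.75 log2 on WT chow (1423828_at, its only probe set). The other 3 arrays lay within 0.14 log2 of each other. Fasn was 1.55-fold lower on chow (rank 268 from the lowest of 10525 genes). Its mean genotype difference of -0.31 ± 0.12 log2 did not pass (limma adjusted p = 0.341), and neither did its diet difference of -0.18 ± 0.12 log2 (limma adjusted p = 0.41).

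Me1 and Scd1, which supply NADPH and desaturate the product, varied little in their brightest probe sets. Me1 had 13.65 log2 on the array labelled LASS2-/- HFD against 13.56 log2 on WT HFD, and 13.38 log2 on the array labelled LASS2-/- chow against 13.58 log2 on WT chow (1430307_a_at). A further Me1 probe set, 1416632_at, had 12.75 log2 on the array labelled LASS2-/- HFD against 12.74 log2 on WT HFD, and 12.08 log2 on the array labelled LASS2-/- chow against 12.42 log2 on WT chow. It was higher on high-fat diet under both genotype labels, by 0.67 under the LASS2-/- label and 0.32 under the WT label, and rose with diet when every probe set was fitted on its own (limma adjusted p = 0.0104). The brightest Me1 probe set did not pass in that fit (limma adjusted p = 0.472).

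Scd1 gave different answers by probe set. Probe set 1415964_at had 15.28 log2 on the array labelled LASS2-/- HFD against 15.35 log2 on WT HFD, and 15.44 log2 on the array labelled LASS2-/- chow against 15.37 log2 on WT chow. Its mean signal was above that of 99.95% of probe sets, and the highest signal on any array was 15.89 log2. Whether differences are read in full so near the top of the range was not tested. Probe set 1415965_at had 12.97 log2 on the array labelled LASS2-/- HFD against 13.11 log2 on WT HFD, and 13.69 log2 on the array labelled LASS2-/- chow against 13.95 log2 on WT chow. The values of 1415964_at differed by at most 0.16 log2 between any 2 arrays. Those of 1415965_at were 1.65-fold lower on high-fat diet under the LASS2-/- label and 1.80-fold lower under the WT label, and it fell with diet when every probe set was fitted on its own (limma adjusted p = 7.21e-05, against 0.525 for 1415964_at).

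Thrsp and Pnpla3, lipogenic target genes that encode the Spot 14 protein and a lipid droplet acyl hydrolase (PNPLA3), did not pass for genotype or diet. Thrsp had 14.78 log2 on the array labelled LASS2-/- HFD against 15.01 log2 on WT HFD, and 14.94 log2 on the array labelled LASS2-/- chow against 14.99 log2 on WT chow (1424737_at). Probe set 1424737_at was brighter in mean signal than 99.76% of probe sets, so the limit given for Scd1 holds here too. The next probe set, 1422973_a_at, had genotype ratios of -0.26 on HFD and -0.18 on chow. A dim probe set, 1444166_at, had 7.93 log2 on the array labelled LASS2-/- HFD against 7.96 log2 on WT HFD, and 3.46 log2 on the array labelled LASS2-/- chow against 7.76 log2 on WT chow. It was under the array median of 6.28 log2 on the array labelled LASS2-/- chow alone, which makes it at least 2.80-fold lower there than on WT chow, a difference that the other Thrsp probe sets did not show. With its 3 probe sets averaged, the Thrsp ratio on chow was -1.51 in place of -0.05 and its mean genotype difference -0.84 in place of -0.14 log2, which did not pass. Pnpla3 had 7.70 log2 on the array labelled LASS2-/- HFD against 6.84 log2 on WT HFD, and 7.25 log2 on the array labelled LASS2-/- chow against 7.73 log2 on WT chow (1420655_at, its only probe set). The genotype ratio was 0.86 on HFD and -0.48 on chow, and their difference of 1.34 log2, rank 57 from the highest of 10111 genes, exceeded that of Srebf1. The moderated SE of Pnpla3 was 0.34 log2, and the mean genotype difference of 0.19 log2 and mean diet difference of -0.22 log2 did not pass (limma adjusted p = 0.923 and 0.759).

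Mlxipl, the ChREBP gene, was lower on high-fat diet under both genotype labels. Srebf1 was higher under both, but under the WT label by 0.25 log2, less than the SD of 0.407 between the WT arrays. Mlxipl had 11.61 log2 on the array labelled LASS2-/- HFD against 12.05 log2 on WT HFD, and 12.35 log2 on the array labelled LASS2-/- chow against 12.61 log2 on WT chow (1419185_a_at, its only probe set). Both HFD arrays lay below both chow arrays, and within each diet the array labelled LASS2-/- lay below WT. High-fat diet over chow was 1.66-fold lower under the LASS2-/- label and 1.47-fold lower under the WT label. Mlxipl fell with diet by 0.65 ± 0.10 on the log2 scale (limma adjusted p = 0.000521), in 9 of 10 alternatives as well. Its genotype difference of -0.35 ± 0.10 log2 did not pass (limma adjusted p = 0.147).

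**Figure D2:**
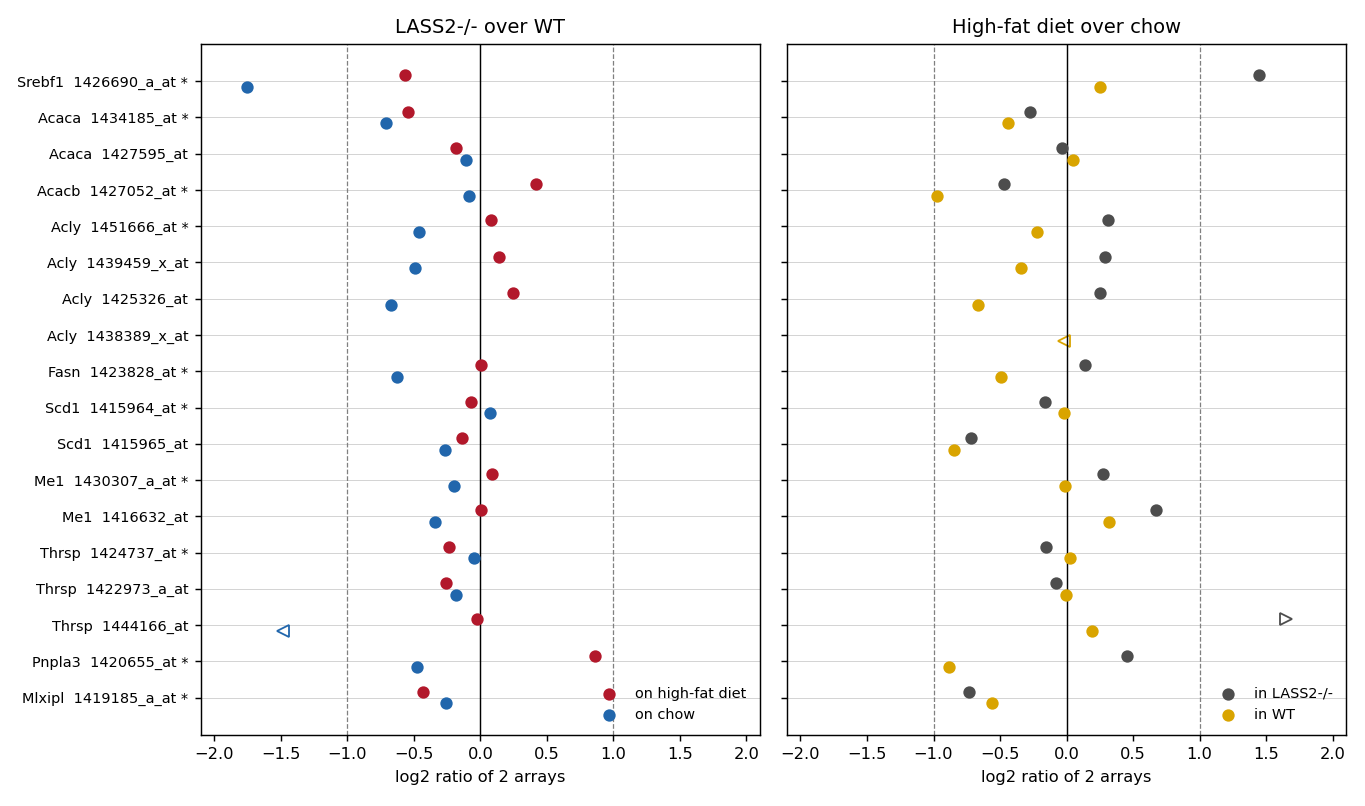
Log2 ratios of 2 arrays (horizontal axis) for the 18 kept probe sets of the 10 genes, labelled LASS2-/- over WT on the left and high-fat diet over chow on the right. An asterisk marks the probe set that stands for the gene, dashed lines mark 2-fold and open triangles are bounds. Srebf1 lies past 2-fold on chow (-1.76) and for diet under the LASS2-/- label (1.45), and the 3 bright Acly probe sets lie to the left of 0 on chow and to the right of it on high-fat diet.

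Set against all genes, 2 of the 10 genes fell with the LASS2-/- label, Srebf1 and Acaca, and none rose, while 0.913% of 12493 genes passed for genotype in either direction and 0.352% fell. At an unadjusted p under 0.05 there were 4 of the 10 genes, against 10.4% of all. On chow the median log2 genotype ratio of the 10 genes was -0.36, against 0.01 over all genes, and 9 of 10 were below 0, against 48.4% of all genes. Of the 9 genes, Thrsp (-0.05), Acacb (-0.09) and Me1 (-0.20) lay within the SD of 0.257 between the chow arrays. Scd1 was the exception by its brightest probe set (0.07), while its other probe set had -0.26. With each gene's probe sets averaged, Scd1 was at -0.10 and Acacb at 0.01, and 9 of 10 were again below 0. With quantile normalization or equal array medians the brightest Scd1 probe set was below 0 as well. The share of all genes below 0 was then 50.2% with quantile normalization and 63.1% with equal medians. Equal medians moved the chow genotype ratio of all genes to a median of -0.09, and that of the 10 genes to -0.46. On high-fat diet the median of the 10 genes was -0.03, against 0.01 over all genes, with 5 below and 5 above 0.

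At least 2-fold apart between the arrays labelled LASS2-/- and WT were 0 of the 10 genes on HFD, against 2.07% of 11812 genes, and 1 on chow, Srebf1, against 1.69% of 11719 genes. Averaging each gene's probe sets gave 2 on chow, Srebf1 and Thrsp. Of all genes, 145 were 2-fold higher and 53 lower on chow, or 104 and 95 with equal array medians. The lowest of the 4 arrays was labelled LASS2-/- HFD for Acaca, Scd1, Thrsp and Mlxipl and labelled LASS2-/- chow for Srebf1, Acly, Fasn and Me1. It was WT HFD for Acacb and Pnpla3, and WT chow for none. Over all genes the lowest array was labelled LASS2-/- HFD in 23.3%, labelled LASS2-/- chow in 28.1%, WT HFD in 23.8% and WT chow in 24.8% of cases.

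With diet, Srebf1 rose and Acacb and Mlxipl fell, 3 of the 10 genes, where 11.3% of all 12493 genes passed (6.26% rose and 5.04% fell). The rise of Srebf1 was made of log2 ratios of 1.45 under the LASS2-/- label and 0.25 under the WT label. Under the LASS2-/- label the median log2 ratio of high-fat diet over chow was -0.01 for the 10 genes, against 0.02 over all genes, with 5 below and 5 above 0. Under the WT label it was -0.33 for the 10 genes, against 0.02 over all genes, and 8 of 10 were below 0, against 47.5% of all genes, or 6 of 10 with quantile normalization. This median and the genotype median on chow share the WT chow array, so they are not independent of each other. WT chow was the highest array for Acaca, Acacb, Acly, Fasn, Pnpla3 and Mlxipl, and the share of all genes highest there was not counted. At least 2-fold apart were 1 of the 10 genes under the LASS2-/- label, Srebf1, against 5.27% of 11861 genes, and 0 under the WT label, against 3.58% of 11759 genes. When each gene's probe sets were averaged, Thrsp was past 2-fold under the LASS2-/- label as well (log2 ratio 1.41). Under the LASS2-/- label 389 genes of all were 2-fold higher and 236 lower, or 495 and 189 with equal array medians. Beside these diet changes and those of other cell markers given at the end, 2 of 6 measured hepatocyte markers fell as well, Fgb by 0.37 ± 0.07 on the log2 scale (limma adjusted p = 0.00299) and Cps1 by 0.41 ± 0.07 (limma adjusted p = 0.00215). The hepatocyte list had median diet ratios of -0.25 under the LASS2-/- label and -0.12 under the WT label. In whole liver RNA, fewer cells of a type and less RNA per cell cannot be told apart, and the part of these markers in the diet result was not tested.

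**Figure D3:**
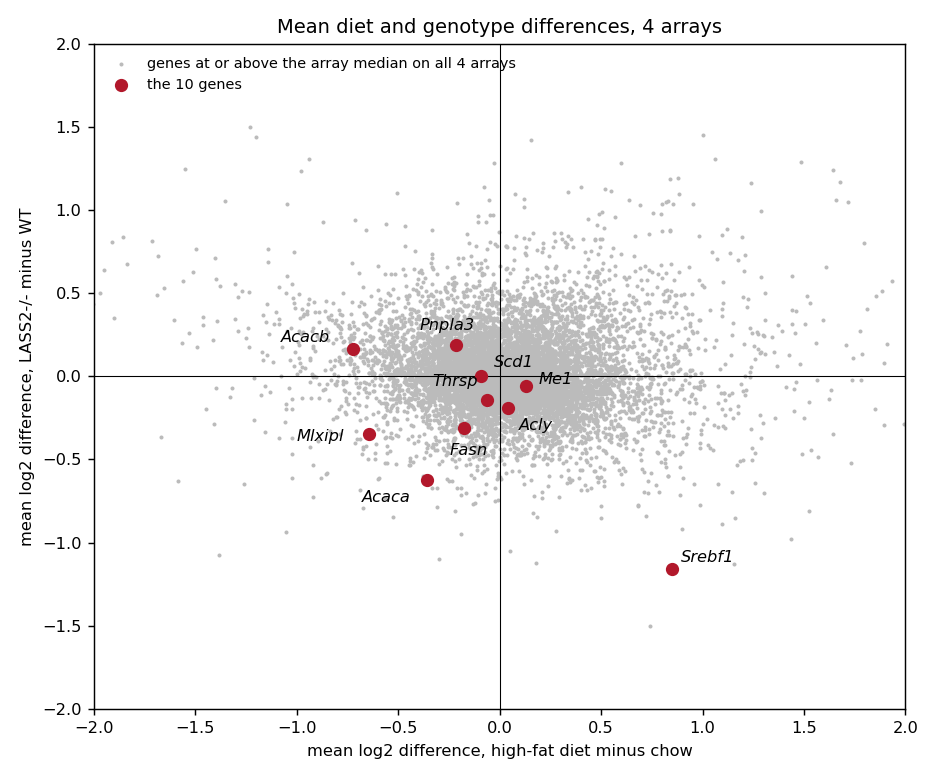
Mean log2 difference of high-fat diet minus chow (horizontal axis) against mean log2 difference of labelled LASS2-/- minus WT (vertical axis) over the 4 arrays, for the 10 genes (red) and for 10111 genes at or above the array median on all 4 arrays (grey, of which 31 lie outside the axes). Srebf1 lies at 0.85 and -1.16, to the right of and below the other 9 genes, Acaca at -0.36 and -0.62, and Mlxipl and Acacb at the left.

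The genes around the pathway were read in 8 lists with 98 different genes, 89 of them measured. Of these, 1 rose and 1 fell with the LASS2-/- label, and 17 rose and 8 fell with high-fat diet. Over all 12493 genes 0.913% passed for genotype and 11.3% for diet. At that genotype share, 0 passing genes in a list of this size is no result about the list. The diet calls named below were all lost in the fit without trend and otherwise held in 8 or 9 of 10 alternatives unless a count is given. Apart from the sterol synthesis genes, the list medians lay near those of all genes: between -0.18 and 0.12 log2 for the genotype ratio on HFD and between -0.16 and 0.19 log2 on chow, and between -0.24 and 0.17 log2 for the diet ratio under the LASS2-/- label and between -0.14 and 0.24 log2 under the WT label. In control of SREBP processing and transcription, 0 of 19 measured genes passed for genotype (0 also at an unadjusted p under 0.05), and 1 rose and 1 fell with diet. Insig2, which retains the SREBP precursor, rose with high-fat diet by 0.89 ± 0.10 log2 (limma adjusted p = 6.46e-05). Trib1, a pseudokinase with effects on hepatic lipogenesis in mice, fell by 1.29 ± 0.24 on the log2 scale (limma adjusted p = 0.00273), with genotype ratios of -0.06 on HFD and 1.01 on chow. Of 17 insulin and AMPK genes, 0 passed for genotype in limma, where 3 had an unadjusted p under 0.05, and 2 fell with diet. These were Irs2, an insulin receptor substrate, by 1.17 ± 0.24 on the log2 scale (limma adjusted p = 0.0056), and Prkaa2, a catalytic subunit of AMPK, which inhibits the acetyl-CoA carboxylases, by 0.46 ± 0.10 (limma adjusted p = 0.0104).

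Among the genes that feed carbon to the pathway, 0 of 12 passed for genotype in limma (1 at an unadjusted p under 0.05), 1 rose with diet and 1 fell. Cs, citrate synthase, rose by 0.85 ± 0.12 log2 (limma adjusted p = 0.000234), and Pklr, liver pyruvate kinase, fell by 0.47 ± 0.12 on the log2 scale (limma adjusted p = 0.0223, in 7 of 10 alternatives). Of 6 genes of NADPH supply, 0 passed for genotype in limma (1 at an unadjusted p under 0.05) and 2 rose with diet. Pgd, of the pentose phosphate pathway, rose by 0.92 ± 0.17 log2 (limma adjusted p = 0.00266) and Taldo1, transaldolase, by 0.48 ± 0.10 log2 (limma adjusted p = 0.00458).

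Of 13 genes of malonyl-CoA use and fatty acid modification, 1 fell with the LASS2-/- label. It was Mid1ip1, which encodes a partner of acetyl-CoA carboxylase related to Thrsp. Mid1ip1 had 10.80 log2 on the array labelled LASS2-/- HFD against 11.23 log2 on WT HFD, and 9.80 log2 on the array labelled LASS2-/- chow against 10.69 log2 on WT chow. Like Srebf1 it was lowest on the array labelled LASS2-/- chow and higher on high-fat diet under both genotype labels. It fell with the label by 0.66 ± 0.13 on the log2 scale (limma adjusted p = 0.0338, in 4 of 10 alternatives) and rose with diet by 0.77 ± 0.13 (limma adjusted p = 0.0015, in 9 of 10). In the same list 3 genes rose and 2 fell with diet. Elovl6, the elongase of palmitate, fell by 1.16 ± 0.09 on the log2 scale (limma adjusted p = 1.27e-06), Acot1, an acyl-CoA thioesterase, by 0.70 ± 0.16 (limma adjusted p = 0.0133, in 5 of 10 alternatives), and Elovl3, another elongase, rose by 0.60 ± 0.10 log2 (limma adjusted p = 0.00133).

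In glycerolipid synthesis 0 of 8 genes passed for genotype in limma (1 at an unadjusted p under 0.05) and 3 rose with diet. Gpam, the mitochondrial glycerol-3-phosphate acyltransferase, rose by 0.92 ± 0.09 log2 (limma adjusted p = 7.66e-06). Mogat1, a monoacylglycerol acyltransferase, rose with diet (limma adjusted p = 4.27e-05). It was under the median on the array labelled LASS2-/- chow, so that its log2 diet ratio was at least 2.61 under the LASS2-/- label, and it was 2.32 under the WT label. Pparg, a nuclear receptor of fat storage, rose by 1.63 ± 0.21 log2 (limma adjusted p = 0.000147). Of 8 genes linked to ChREBP, 0 passed for genotype in limma (1 at an unadjusted p under 0.05), and 3 fell and 1 rose with diet. Txnip fell by 0.97 ± 0.13 on the log2 scale (limma adjusted p = 0.00016), G6pc, glucose-6-phosphatase, by 0.74 ± 0.16 (limma adjusted p = 0.00767), and Pklr, counted here a further time, as above, whereas Gpd1, glycerol-3-phosphate dehydrogenase, rose by 1.01 ± 0.11 log2 (limma adjusted p = 4.66e-05). The list thus held genes of either direction beside the fall of Mlxipl itself.

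The sterol synthesis genes, targets of the related factor SREBP-2, differed from the 10 lipogenesis genes in value. Of 9 measured, 6 rose and 0 fell with high-fat diet, and 1 rose with the LASS2-/- label. Their median diet ratio was 1.14 log2 under the LASS2-/- label and 0.64 log2 under the WT label, and their median genotype ratio 0.59 log2 on HFD and -0.12 log2 on chow. Hmgcs1, HMG-CoA synthase, rose with diet by 2.02 ± 0.14 log2 (limma adjusted p = 5.89e-07), Sqle, squalene epoxidase, by 1.10 ± 0.17 log2 (limma adjusted p = 0.000825), and Cyp51, lanosterol demethylase, by 0.93 ± 0.12 log2 (limma adjusted p = 0.000147). Idi1, isopentenyl diphosphate isomerase, rose with diet by 1.22 ± 0.09 log2 (limma adjusted p = 1.06e-06) and with the LASS2-/- label by 0.42 ± 0.09 log2 (limma adjusted p = 0.0443, in 4 of 10 alternatives).

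**Figure D4:**
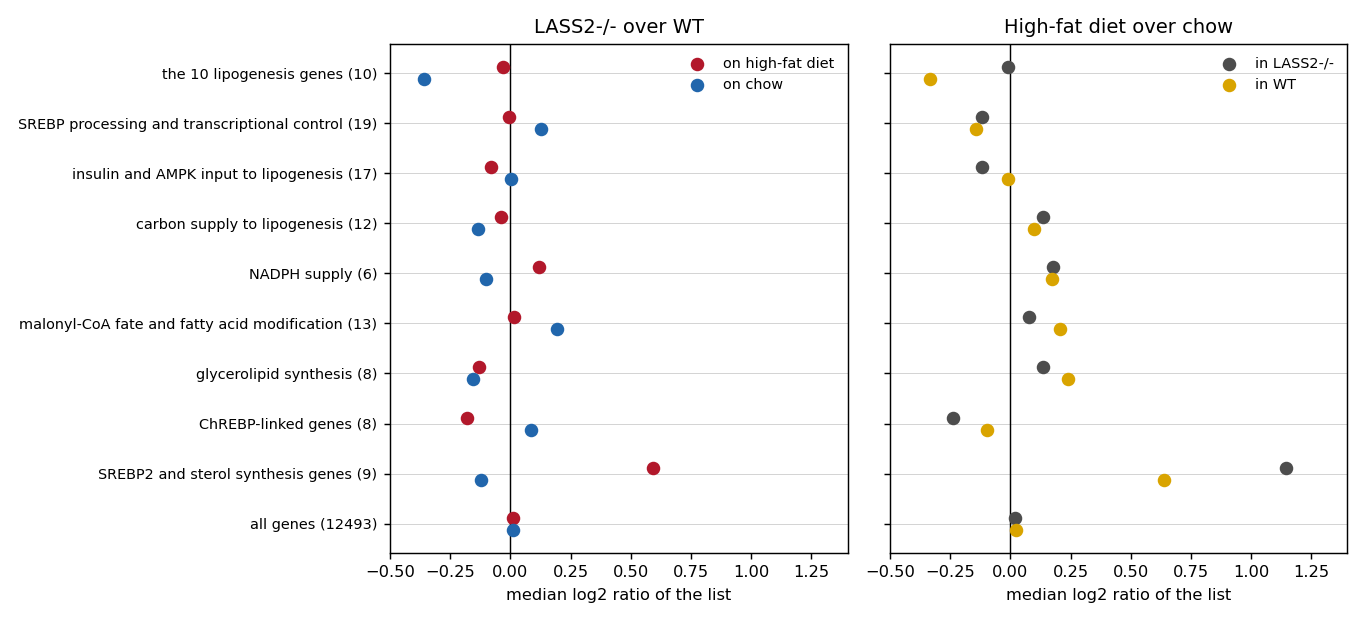
Median log2 ratio (horizontal axis) of the measured genes of each list, with their number in brackets, for labelled LASS2-/- over WT on the left and high-fat diet over chow on the right. The 10 lipogenesis genes lie at -0.03 on HFD and -0.36 on chow for genotype and at -0.01 under the LASS2-/- label and -0.33 under the WT label for diet, while the sterol synthesis genes lie at 1.14 and 0.64 for diet.

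Genes whose pattern over the 4 arrays was most like that of Srebf1 were sought by the Euclidean distance of log2 values after subtracting each gene's mean, among 994 genes at or above the median on all arrays and with a range of at least 1 log2. The nearest was Gas1, a membrane protein of Hedgehog signalling, at 0.31 log2, followed by Golm2 (0.45), Tbc1d10a (0.54), Kcnk5 (0.55), Hectd2os (0.56) and Tnfrsf19 (0.60). Gas1 had 10.00 log2 on the array labelled LASS2-/- HFD against 10.14 log2 on WT HFD, and 8.32 log2 on the array labelled LASS2-/- chow against 10.02 log2 on WT chow. As for Srebf1, the array labelled LASS2-/- chow alone was low. The other lipogenesis genes lay between 1.30 log2 (Acly) and 2.09 log2 (Acacb) from Srebf1. Their own ranges were 0.16 log2 (Scd1) to 0.99 log2 (Mlxipl), against 2.01 log2 for Srebf1. They were under the 1 log2 asked for, so none was among the 994 genes. The distance grows with a difference in range, so it cannot tell a like pattern of smaller size from an unlike one. With 4 arrays the search is a description of these arrays, and the 6 genes were picked for their likeness.

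The liver label was checked against markers. Alb, the albumin gene, had 15.02 log2 on the array labelled LASS2-/- HFD against 15.07 log2 on WT HFD, and 15.27 log2 on the array labelled LASS2-/- chow against 15.08 log2 on WT chow. The hepatocyte markers, 6 of 8 measured, had median genotype ratios of -0.06 on HFD and 0.06 on chow, and 0 passed for genotype in limma, where 1 had an unadjusted p under 0.05. Macrophage and Kupffer cell markers were higher on the arrays labelled LASS2-/-, in 8 of 8 genes on HFD (median 0.52) and 7 of 8 on chow (median 0.28), and 2 of the 8 rose with the label, Marco, a scavenger receptor, by 2.48 ± 0.24 log2 (limma adjusted p = 0.000391) and Lyz2, lysozyme, by 0.64 ± 0.13 log2 (limma adjusted p = 0.037, in 3 of 10 alternatives). Their summed linear signal was 22604 on the array labelled LASS2-/- HFD against 15350 on WT HFD, and 18992 on the array labelled LASS2-/- chow against 15296 on WT chow. Of 8 adipocyte markers 4 were measured, with a summed signal of 3686 on the array labelled LASS2-/- HFD against 3507 on WT HFD, and 1449 on the array labelled LASS2-/- chow against 922 on WT chow. Fabp4 made up most of this sum on every array. The adipocyte-defining Adipoq and Lep were below the median on all arrays, at most 4.45 and 2.81 log2, while 2 of the 4 measured rose with high-fat diet, Fabp4 by 1.37 ± 0.16 log2 (limma adjusted p = 4.51e-05) and Cidec by 3.38 ± 0.20 log2 (limma adjusted p = 1.49e-07). In each of the lists for endothelial, bile duct, stellate, lymphoid, erythroid, muscle and pancreatic acinar cells 0 genes passed for genotype in limma. These lists had few measured genes. An unadjusted limma p under 0.05 was found in 1 of 3 bile duct, 1 of 5 stellate and 1 of 3 lymphoid genes. It was also found in 1 of 1 erythroid and 1 of 1 pancreatic acinar genes, and in 0 of 6 endothelial and 0 of 2 muscle genes. Over all genes the shares were 0.913% and 10.4%. Diet calls did occur among markers of other cell types. In the stellate list, Col3a1, a fibrillar collagen, rose with high-fat diet by 1.44 ± 0.12 log2 (limma adjusted p = 3.71e-06). Des, desmin, fell (limma adjusted p = 0.00456, in 8 of 9 alternatives) and was under the median on both HFD arrays, with log2 diet ratios of -1.60 or lower under the LASS2-/- label and -1.33 or lower under the WT label. The stellate markers had a summed linear signal of 4279 on the array labelled LASS2-/- HFD against 4077 on WT HFD, and 2469 on the array labelled LASS2-/- chow against 1802 on WT chow. Most of this sum was Col3a1 on every array, so it mainly follows that gene. The log2 diet ratio was above 0 in 3 of 5 stellate genes under the LASS2-/- label and in 4 of 5 under the WT label. Cdh5, an endothelial cadherin, rose with diet by 0.75 ± 0.17 log2 (limma adjusted p = 0.0125), Ptprc, the leukocyte antigen CD45, by 0.51 ± 0.14 log2 (limma adjusted p = 0.0268, in 6 of 10 alternatives) and Lyz2 by 0.50 ± 0.13 log2 (limma adjusted p = 0.0261, in 4 of 10). The part of macrophage RNA in the genotype differences of Srebf1 and Acaca, and of the RNA of adipocytes and these other cell types in the diet differences, was not tested.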

How the data were processed

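Liver RNA of 4 groups of male mice was hybridised, after labelling by GeneChip 3' IVT Express, to 1 Affymetrix array per group. The authors deposited 1 log2 signal per probe set and array, made with MAS5 per the submitters' processing notes. Its version and scaling target are not stated in the sources used here. On the linear scale the trimmed mean (2% of probe sets off each tail) was 496.0 to 496.2 on every array, so the arrays were not rescaled. Values of exactly 0 numbered 342 on the array labelled LASS2-/- HFD, 299 on WT HFD, 196 on LASS2-/- chow and 280 on WT chow. Detection calls were not used here, and the number of arrays limits the precision.

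Probe sets were named through the platform's gene numbers and mouse gene names of assembly GRCm38.p6, which gave 34945 of them a single symbol and 932 several, and left 9160 unnamed here. Probe sets were kept if at or above the array median (6.19 log2 on LASS2-/- HFD, 6.19 on WT HFD, 6.28 on LASS2-/- chow and 6.17 on WT chow) on at least 1 array, and a gene was represented by its kept probe set of highest mean signal. Ratios used values floored at these medians, and a ratio with 1 array under its floor is a bound. Genotype and diet were tested in limma 3.58.1 (R 4.3.3; lmFit and eBayes with trend, Benjamini-Hochberg over all kept genes). The additive model has 3 coefficients on 4 arrays, which leaves 1 residual degree of freedom beside 12.7 prior degrees of freedom. The script was run on simulated data with set changes, which checks the code and not whether the model holds for these arrays. With 1 array per group, no spread between arrays of a group enters the p-values. Their error is the difference between the genotype ratios of the diets, pooled toward genes of like signal. The labels also do not say that arrays come from separate animals, so the p-values measure no spread between animals. Alternatives changed the normalization, the filter and floor, the probe set that stands for a gene, the moderation and the fold threshold.

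The text names every one of the 10 genes with its probe sets, Cers2, up to 4 genes of each further list that passed limma, by smallest adjusted p, and the 6 genes nearest to Srebf1. Alb, Adipoq and Lep were named outside this rule as defining markers, chosen after their values were seen. The 10 genes, the lists and the tests were chosen with earlier results of these data known, so that none is independent evidence. Promoter motifs were searched on both strands of the RefSeq windows in Python 3.11.15.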

Additional observations from a re-analysis of the deposited data

Results flagged for a closer look

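Among the 10 genes, 7 had ratios of opposite sign on the diets or under the genotype labels, with 1 array in each group, and none of these differences was tested. Over 10111 genes measured on all arrays, 55.2% had such ratios, 43.7% for genotype (6 of the 10 genes) and 30.9% for diet (5 of the 10). The sign of the smallest ratios was not stable over 7 alternatives: Scd1 on chow kept its sign in 4, the diet ratio of Me1 under the WT label in 5 (range -0.03 to 0.15) and Acly on HFD in 6 (lowest -0.24). Acacb on chow kept its sign in 6 as well (highest 0.01). So did the diet ratio of Scd1 under the LASS2-/- label (range -0.44 to 0.03) and under the WT label (range -0.43 to 0.07). The diet ratio of Thrsp under the LASS2-/- label kept its sign in 6 and reached 1.41 with the mean of its probe sets. For arrays labelled LASS2-/- over WT, the log2 ratio on HFD minus that on chow was 1.34 for Pnpla3 (0.86 on HFD and -0.48 on chow), 0.63 for Fasn (0.00 and -0.63), 0.53 for Acly (0.08 and -0.46), 0.50 for Acacb (0.42 and -0.09), 0.29 for Me1 (0.09 and -0.20) and -0.14 for Scd1 (-0.07 and 0.07). For high-fat diet over chow, the log2 ratio under the LASS2-/- label minus that under the WT label was by construction the same 1.34 for Pnpla3 (0.45 under the LASS2-/- label and -0.89 under the WT label), 0.63 for Fasn (0.14 and -0.49), 0.53 for Acly (0.31 and -0.23) and 0.29 for Me1 (0.27 and -0.01), and it was -0.19 for Thrsp (-0.16 and 0.03). No group had the 4 or more samples needed to look for single deviating samples.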

How the results depend on the processing

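For genotype, limma called 114 genes and 2 of the 10 (Srebf1 and Acaca). It called 23 and 0 with quantile normalization, 22 and 0 with equal array medians, 39 and 0 with the mean of all probe sets, and 52 genes with no filter on low signal. Of the 10 genes, 1 passed with every probe set on its own (Srebf1) and 1 with robust moderation (Acaca). Without the trend it called 0 and 0, where 820 genes and 1 of the 10 had an unadjusted p under 0.05, against 1294 and 4 with it. The call split of 70 higher and 44 lower became 11 and 11 with equal medians and 14 and 9 with quantile normalization. For diet it called 1412 genes and 3 of the 10, against 898 genes with equal medians, 719 with the mean of all probe sets, and 0 and 0 without the trend, where 1783 genes and 2 of the 10 had an unadjusted p under 0.05. The mean genotype difference of Scd1 turned to -0.022 with quantile normalization, -0.0517 with equal medians and -0.10 with the mean of its probe sets. The diet difference of Scd1 turned to 0.0512 with quantile normalization and was -0.44 (limma adjusted p = 0.00892) with the mean of its probe sets. That of Thrsp turned to 0.0295 with quantile normalization and 0.74 with the mean of its probe sets, which takes in the dim 1444166_at. Genes at least 2-fold apart numbered 245 for labelled LASS2-/- over WT on HFD and 198 on chow, 1576 and 1789 with a floor at the 25th percentile, 498 and 455 with every probe set on its own, and 1131 and 1129 at 1.5-fold. For high-fat diet over chow they numbered 625 under the LASS2-/- label and 421 under the WT label, 2280 and 1858 with the lower floor, 1182 and 871 with every probe set, and 2167 and 1601 at 1.5-fold. Beyond what the lower floor and looser threshold admit by construction, the cause of these shifts was not tested. No paired analysis was possible because the labels carry no replicate numbers and each group has 1 array. Leaving out 1 array leaves the model no residual degree of freedom, so it was not run.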
